A study of Rattus norvegicus with 16 samples.

Results

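The comparison described here set the mammary glands of 50-day-old female rats whose mothers had received genistein alone against those of untreated controls of the same age. The arrays were chosen by their titles: 2 pools labelled genistein at postnatal day (PND) 50 and 2 pools labelled control at PND50, of 16 arrays in the whole series. All rats were Wistar Han, their dams were kept on a purified diet without phytoestrogens, and the daughters ate that diet until they were killed. In the genistein group, 1 mg per kg body weight was given by gavage to the dam every day from gestational day 1 to weaning at PND21, and the daughters were not dosed themselves after weaning. The controls are labelled as having had no treatment, and the labels do not say whether their dams were gavaged with a vehicle. Dams were randomised into groups of 15, with 1 daughter taken from each litter, and each array carried pooled RNA of 5 animals. The other arrays of the series hold vinclozolin (a fungicide with antiandrogenic action), the mixture of both compounds, and all 4 treatments at PND35, again with 2 pools for each group. The females are described as pubertal or cycling, with no stage of the estrous cycle given.

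Genistein is an isoflavone of soy that binds estrogen receptors and that, in cell systems, also inhibits protein tyrosine kinases. The rat mammary gland grows out from a small rudiment during puberty, when estrogen drives the elongation of ducts and progesterone and prolactin drive side branching and the formation of alveolar buds. Its epithelium has a luminal layer, where milk proteins are made, and a basal layer of contractile myoepithelial cells, and it lies in a pad of fat and connective tissue.

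The arrays gave 1 log2 value for each of 27342 probe sets, and 11796 named genes were bright enough on average to be tested. The pools carried the markers of a mammary gland: Krt8, a luminal keratin, had log2 values of 9.74 and 9.77 in the genistein pools and 9.71 and 9.90 in the control pools, and Csn1s1, an alpha casein, had 13.03 and 12.74 in the genistein pools and 12.88 and 13.07 in the control pools. The 4 pools were about as far from each other within a group as between groups. The SD over genes of the difference between 2 pools was 0.175 for the genistein pair and 0.171 for the control pair, and it was 0.138, 0.164, 0.168 and 0.179 for the 4 pairs of a genistein and a control pool. In the rest of the series the same SD within a group was 0.162 to 0.206, apart from vinclozolin at PND35 (0.303). The spread behind each p-value is that between pools, and each pool averages over 5 animals. Differences between single animals cannot be seen on their own, and the number of pools limits the precision.

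No gene passed the test between genistein and control at PND50. With limma and an adjusted p under 0.05, 0 of 11796 genes were called (0%), and the smallest adjusted p of any gene was 0.9997. At an unadjusted p under 0.05 there were 307 genes (2.6%), 144 higher (1.22%) and 163 lower (1.38%), against the 590 that would be counted if no gene differed and the test were exact. The balance of directions is not a result: with quantile normalization the counts were 177 higher and 166 lower, and with median centring of the arrays 170 higher and 146 lower. An exact permutation test of a single gene with 2 pools against 2 cannot give a p below 0.333. The values bound the size of a difference for most genes: the 95% interval of the log2 fold change lay wholly within 1.5-fold either way for 11170 genes (94.7%) and within 2-fold for 11665 genes (98.9%), which leaves 131 genes for which a 2-fold difference lies within the interval. Of all fold changes, 47.7% were above 0 in the values as deposited (5631 genes), against 5936 of 11797 genes with quantile normalization and 6066 of 11796 with median centring. The middle 95% of log2 fold changes ran from -0.21 to 0.20, with a median standard error of 0.094. The fold changes were 1.5-fold or more for 18 genes and 2-fold or more for 3, namely Spt1 and Nr1d1, higher with genistein, and Glycam1, lower.

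**Figure D1:**
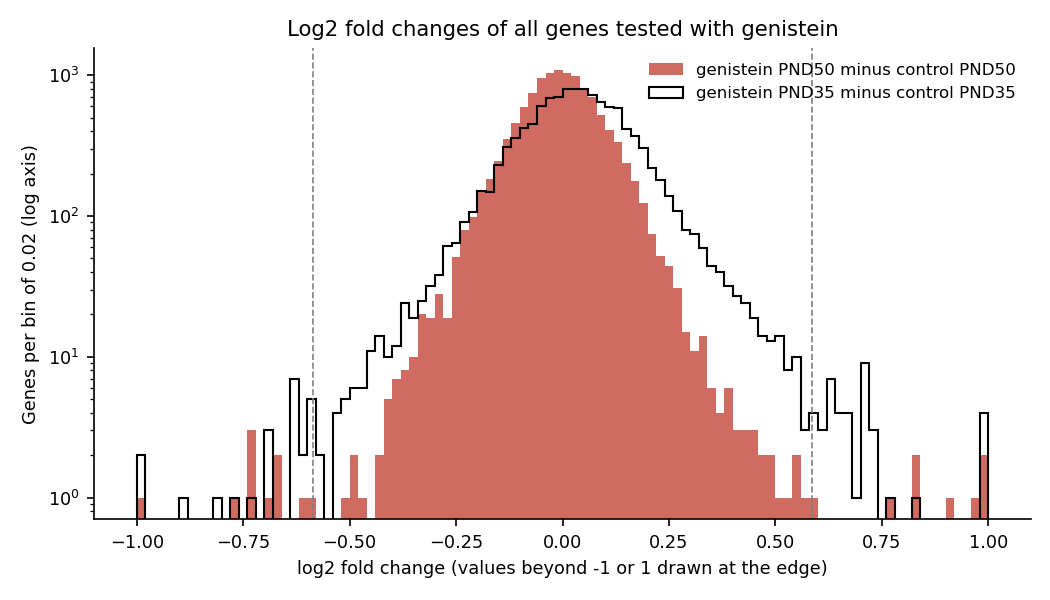
Log2 fold changes of 11796 genes with genistein against control at PND50 (filled) and at PND35 (line), as the number of genes per bin on a log axis. Dashed lines mark 1.5-fold either way. At PND50 the SD of the log2 fold changes was 0.108 and 18 genes lay at or beyond 1.5-fold, and at PND35 the SD was 0.150 and 61 genes did.

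The genes with the largest differences among those with an unadjusted p under 0.05 and no overlap between the groups are given here as genes that did not pass. Lack of overlap alone is common with pools this few, since 3552 genes (30.1%) had none, 1694 of them with both genistein pools higher (14.4%) and 1858 with both lower (15.8%), and only 12 of those (0.102%) also reached 1.5-fold. Kng2, a kininogen, which is a precursor of kinins, had log2 values of 7.01 and 7.08 in the genistein pools and 6.08 and 6.09 in the control pools. The pools of each group nearly coincided, and the genistein pools stood 1.95-fold above the control pools (95% interval 1.16 to 3.29, log2 fold change 0.97, SE 0.34). In a limma fit of the 8 PND50 arrays alone, Kng2 was the 1 gene that passed (SE 0.078, adjusted p = 0.0127). At PND35, which that fit left out, its pools were 7.18 and 5.97 with genistein and 6.45 and 5.49 with the mixture. They were 6.67 and 6.17 in the controls and 7.52 and 7.39 with vinclozolin, so close pools were not general for this gene. Pfkfb3, which makes a fructose bisphosphate that activates glycolysis, had 9.52 and 10.07 in the genistein pools and 9.001 and 8.93 in the control pools. Its genistein pools were both higher, by a mean of 1.78-fold (95% interval 1.19 to 2.65), but lay farther apart than the control pools. Against the same control pools, the log2 fold change of Pfkfb3 was 0.83 with genistein, 0.66 with vinclozolin and 0.91 with the mixture.

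Id1, an inhibitor of helix-loop-helix transcription factors, had 7.74 and 8.06 in the genistein pools and 7.53 and 7.31 in the control pools, a log2 fold change of 0.48 (SE 0.13). Cilp, a protein of the extracellular matrix, had 9.04 and 8.99 in the genistein pools and 8.44 and 8.66 in the control pools (0.47, SE 0.13). Cyp26b1, the enzyme that degrades retinoic acid, had 6.73 and 6.67 in the genistein pools and 6.29 and 6.24 in the control pools (0.43, SE 0.13). In each of these genes the difference between the groups exceeded the gap between the pools of either group. The others of the 12 highest by this rule were the olfactory receptor genes Or6k8 (0.59) and Or4f60 (0.44), the solute carrier Slc35g3 (0.52), the potassium channel Kcnt2 (0.44), the carboxypeptidase Folh1 (0.41), the T-box factor Tbx18 (0.39) and the ephrin receptor Epha3 (0.39). Leaving out 1 pool lowered several of these by more than 1.5 times: Pfkfb3 to 0.55 and Tbx18 to 0.19 without genistein pool 2, Folh1 to 0.26 without genistein pool 1, and Slc35g3 to 0.33 without control pool 1.

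Among the 12 lowest, Gpr37, an orphan G protein-coupled receptor, had 6.27 and 6.41 in the genistein pools and 7.11 and 6.81 in the control pools, a log2 fold change of -0.62 (SE 0.17). Both of its genistein pools were lower than either control pool by more than the gap within a group. Crabp1, a cytoplasmic carrier of retinoic acid, had 11.23 and 11.04 in the genistein pools and 11.56 and 11.48 in the control pools (-0.39, SE 0.14), and it was the brightest of the 24 genes. Gzma, a protease of cytotoxic lymphocytes, had 6.18 and 5.89 in the genistein pools and 6.31 and 6.50 in the control pools (-0.37, SE 0.098). For Ass1 and Gpx2 the difference came mostly from control pool 2. Ass1, an enzyme of arginine synthesis, had 6.56 and 6.64 in the genistein pools and 6.74 and 7.84 in the control pools (-0.69, SE 0.29), and Gpx2, a glutathione peroxidase of epithelia, had 6.44 and 6.39 in the genistein pools and 6.59 and 7.44 in the control pools (-0.60, SE 0.23). Without that pool the log2 fold changes were -0.14 for Ass1 and -0.17 for Gpx2. The remaining 7 were Nt5c3a, a pyrimidine nucleotidase (-0.73), the vomeronasal receptor gene Vom2r16 (-0.50), the olfactory receptor gene Or2ak6e (-0.41), Prg2, the major basic protein of eosinophils (-0.41), Cpxm1 of the carboxypeptidase family (-0.39), Pclo, a presynaptic scaffold (-0.38), and Mrps26 of the mitochondrial ribosome (-0.38). Without control pool 1, Or2ak6e was at -0.16, Cpxm1 at -0.23 and Pclo at -0.23. Nt5c3a was at -0.42 without genistein pool 1, and Gzma at -0.23 without genistein pool 2.

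**Figure D2:**
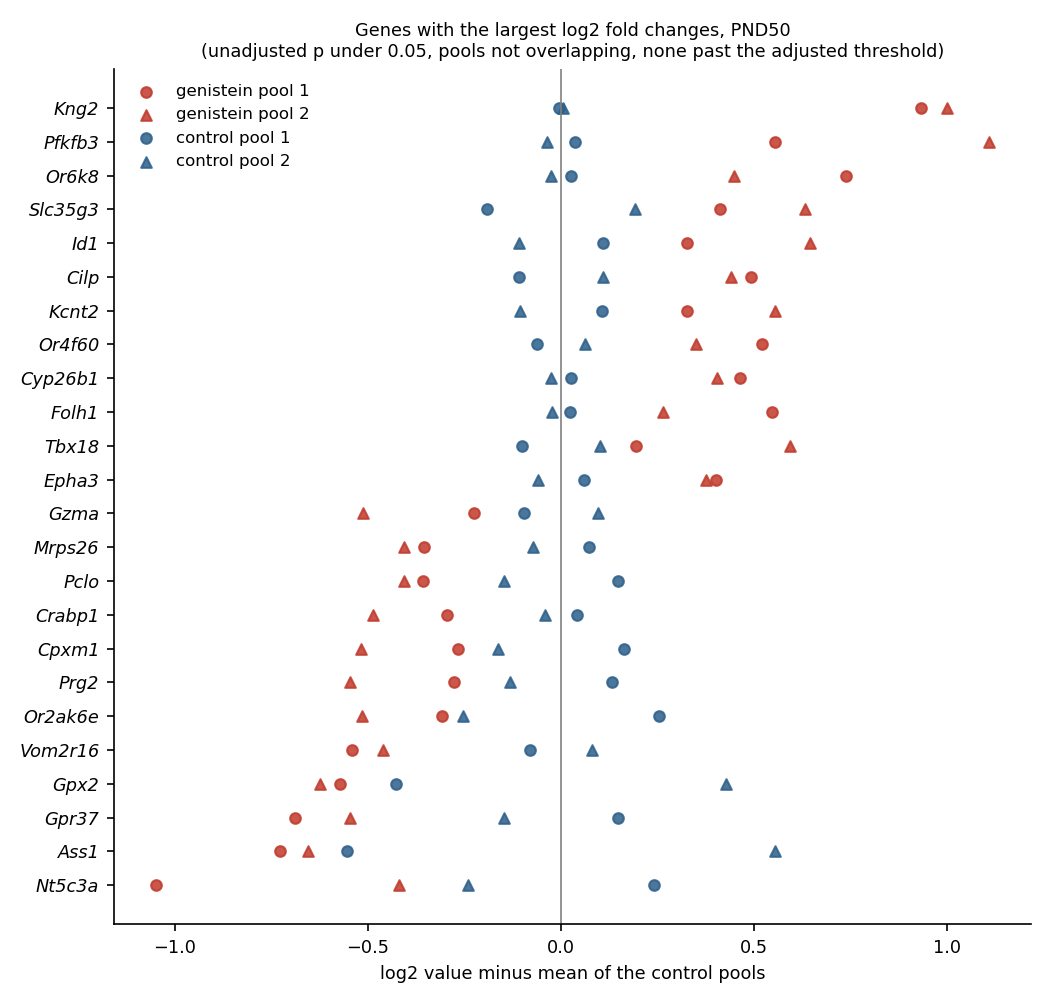
The 24 genes with the largest log2 fold changes among those with an unadjusted p under 0.05 and no overlap, with each pool drawn as its log2 value minus the mean of the control pools. Genistein pools are red and control pools blue, with pool 1 as circles and pool 2 as triangles. Kng2 has pools that nearly coincide within each group, while the lower values of Ass1 and Gpx2 rest on control pool 2.

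Genes of the hormonal control of the gland did not pass, and some of them had wide intervals. A panel of 31 hormone, lineage, growth and milk genes had 25 members named on the array, of which 23 were tested and 0 were called. None of the 23 was at an unadjusted p under 0.05 either. Intervals lay within 1.5-fold for 16 of the 23, against 94.7% of all genes. Esr1, which encodes estrogen receptor alpha, had 10.26 and 10.63 in the genistein pools and 10.44 and 10.34 in the control pools, so the groups overlapped. Its log2 fold change was 0.055, with a 95% interval of -0.24 to 0.35. Pgr, the progesterone receptor and an estrogen target, had 9.64 and 9.95 in the genistein pools and 9.88 and 9.50 in the control pools. It overlapped too, at 0.11, and its wider interval of -0.60 to 0.81 leaves a 1.5-fold difference possible in either direction. Areg, the amphiregulin that relays the estrogen signal to the epidermal growth factor receptor, had 9.46 and 9.71 in the genistein pools and 9.61 and 9.82 in the control pools (-0.13, interval -0.71 to 0.44). Esr2, the estrogen receptor that genistein binds most tightly, lay under the filter on low values, at 5.44 and 5.38 in the genistein pools and 5.55 and 5.52 in the control pools.

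Of 17 tested receptors for steroid and peptide hormones, 10 had a fold change above 0 and 7 below, and the median was 0.027 against -0.0052 over all genes. The median was -0.0028 without control pool 2. The intervals of 16 of the 17 lay within 1.5-fold, against 94.7% of all genes. Prlr, the prolactin receptor, had 10.12 and 10.14 in the genistein pools and 10.10 and 10.16 in the control pools, and Ghr, the growth hormone receptor, had a log2 fold change of -0.028. Igf1, a growth factor made in the stroma under growth hormone, had one of the narrowest intervals of the panel, -0.10 to 0.18 around 0.042. The estrogen response list, with 20 tested members, had 12 above 0 and 8 below, a median of 0.035 (-0.0026 without genistein pool 1) and no member at an unadjusted p under 0.05. Its members ran from Areg at -0.13 to Stc2, a secreted glycoprotein, at 0.20, and 16 of the 20 had intervals within 1.5-fold. Of 9 tested enzymes of steroid metabolism, 7 were above 0 (median 0.070), led by the estradiol-forming reductases Hsd17b7 (0.20) and Hsd17b1 (0.15), and Cyp11a1, the enzyme that starts steroid synthesis, had -0.20. Without genistein pool 2 the median of these enzymes was -0.063, with 4 of 9 above 0.

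**Figure D3:**
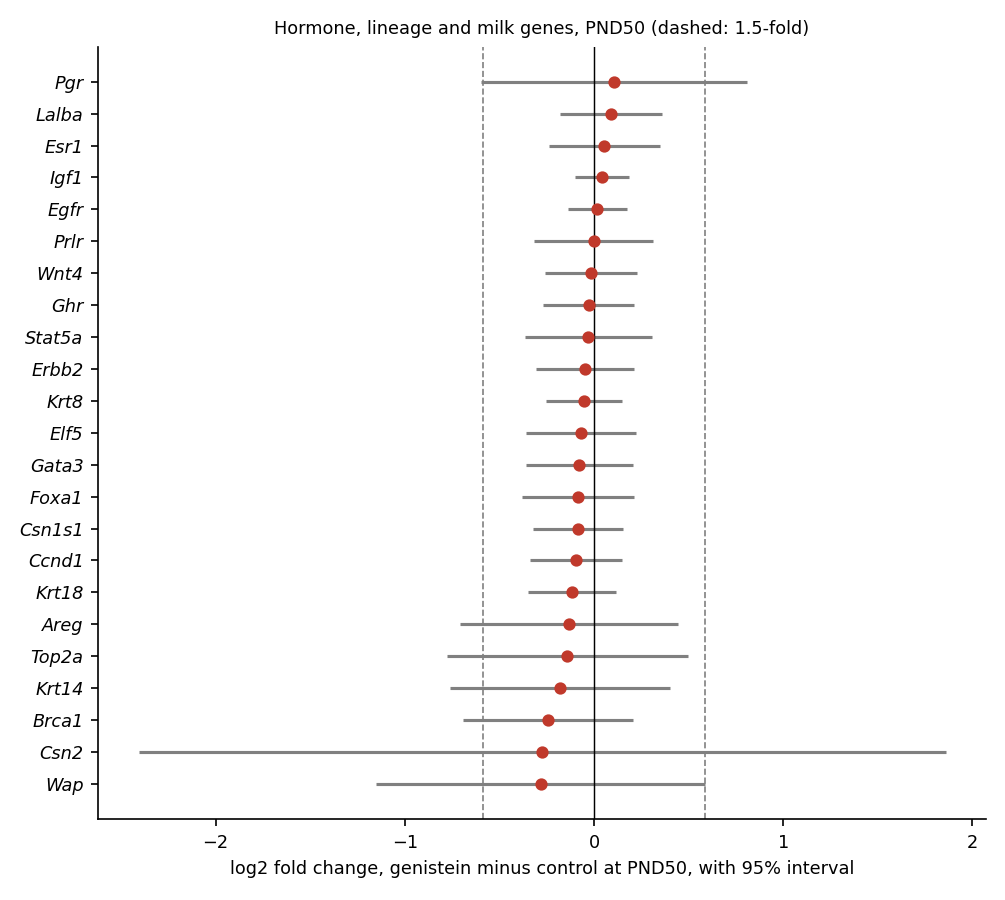
Log2 fold changes of the 23 tested panel genes, genistein minus control at PND50, with 95% intervals from limma. Dashed lines mark 1.5-fold either way. Every interval contains 0, and the widest is that of Csn2 (-2.41 to 1.86).

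Since genistein inhibits tyrosine kinases in cell systems, the genes of growth factor signalling through such kinases were listed as well. Of 24 tested, 12 had a fold change above 0 and 12 below, with a median of 0.0085, and 0 were called. Egfr, the epidermal growth factor receptor, had 10.31 and 10.24 in the genistein pools and 10.25 and 10.25 in the control pools. Its values overlapped, and its interval of -0.14 to 0.17 was narrow. Erbb4, the neuregulin receptor needed in mice for lobuloalveolar growth, had 8.51 and 8.54 in the genistein pools and 8.90 and 8.85 in the control pools. It was lower in both genistein pools, with a log2 fold change of -0.35 (SE 0.14). It was the 1 gene of the 24 at an unadjusted p under 0.05, against 2.6% of all genes. Its ligand Nrg1, neuregulin, had -0.28 (SE 0.16), while Dusp6, a phosphatase induced by the kinase cascade below these receptors, had 0.22 (SE 0.13).

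Among 24 tested genes of Wnt and Notch signalling the median was 0.016, with 14 above 0 and 10 below. Axin2, a feedback inhibitor that Wnt signals induce, had 8.19 and 8.15 in the genistein pools and 7.76 and 7.84 in the control pools. Each pair of pools lay close together and the groups did not overlap, with a log2 fold change of 0.37 (SE 0.082). It did not pass over all genes. Lef1, a transcription factor of the same pathway, had 7.31 and 7.25 in the genistein pools and 6.98 and 7.10 in the control pools (0.24, SE 0.18), and Sfrp2, a secreted Wnt antagonist, had -0.17 (SE 0.20) with overlapping pools.

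Epithelial genes had fold changes mostly below 0 with genistein, none of them past the test. Of 23 luminal genes, 3 were above 0 and 20 below, with a median of -0.11, against 47.7% above 0 over all genes. Both genistein pools were lower for 9 of the 23, against a background of 15.8% of genes. Esrp1, an epithelial splicing regulator, had 8.93 and 8.83 in the genistein pools and 9.08 and 9.24 in the control pools (-0.28, SE 0.15), and Prom1 (prominin 1) had -0.42 (SE 0.35). Gata3, a transcription factor that maintains luminal cells, had 12.04 and 11.95 in the genistein pools and 12.04 and 12.11 in the control pools (-0.078, interval -0.36 to 0.21). Elf5, the regulator of alveolar differentiation, had 10.50 and 10.17 in the genistein pools and 10.32 and 10.49 in the control pools (-0.068, interval -0.36 to 0.22). Ovol1, an epithelial transcription factor, went the other way, at 6.63 and 6.72 in the genistein pools and 6.47 and 6.36 in the control pools (0.26, SE 0.11). It was the 1 luminal gene of the 23 at an unadjusted p under 0.05, against 2.6% of all genes.

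Basal and myoepithelial genes had a median of -0.18, with 1 of 13 above 0 and 12 below, and 8 of the 13 were lower in both genistein pools, against 15.8% over all genes. Cnn1, the calponin of contractile cells, had 10.32 and 10.18 in the genistein pools and 10.60 and 10.56 in the control pools. Its groups did not overlap (-0.33, SE 0.13). It was the 1 gene of the 13 at an unadjusted p under 0.05, against 2.6% of all genes. Krt17, a basal keratin, had 7.77 and 7.98 in the genistein pools and 8.07 and 8.26 in the control pools (-0.28, SE 0.21). Krt14, the keratin of the basal layer, had overlapping pools (-0.18, interval -0.76 to 0.40), and Oxtr, the oxytocin receptor, had 0.038. The luminal and the basal medians stayed below 0 with any 1 of the 4 pools left out, from -0.15 to -0.041 for the luminal and from -0.18 to -0.13 for the basal genes. In RNA of whole glands, fewer cells of a type and less RNA per cell cannot be told apart.

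Several milk genes varied between pools of the same treatment more than between treatments. Glycam1, a mucin-like milk protein, had 9.80 and 8.23 in the genistein pools and 8.32 and 12.49 in the control pools. Control pool 2 was far above the other 3 pools, and the log2 fold change of -1.39 had an interval of -4.90 to 2.11. Csn2, which encodes beta casein, had 9.88 and 8.09 in the genistein pools and 8.07 and 10.45 in the control pools (-0.27). Csn1s2a, another casein gene, had 7.73 and 6.42 in the genistein pools and 6.19 and 9.51 in the control pools (-0.78), and Wap, the whey acidic protein, had 8.68 and 7.79 in the genistein pools and 8.10 and 8.94 in the control pools (-0.28). All 4 genes were high in genistein pool 1 and control pool 2 and low in the other pool of each group. Csn1s1 and Lalba were bright in every pool. Csn1s1 was also higher in genistein pool 1 and control pool 2, but over a smaller range. Lalba, which encodes alpha-lactalbumin, had 12.31 and 12.15 in the genistein pools and 12.15 and 12.13 in the control pools. The intervals of Csn1s1 and Lalba, -0.32 to 0.15 and -0.18 to 0.36, lay within 1.5-fold. Of the 19 tested milk genes, 4 were above 0 and 15 below, with a median of -0.087. That direction turned on single pools: without genistein pool 2 the median was 0.057, and without control pool 2 it was 0.0075, each with 12 of 19 above 0.

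Proliferation genes had the same dependence on control pool 2. Of 22 tested, 1 was above 0 and 21 below, with a median of -0.14 and 0 called. Top2a, the topoisomerase of dividing cells, had 8.60 and 8.71 in the genistein pools and 8.33 and 9.26 in the control pools, so that the genistein pools lay between the control pools. Ccnb1, the cyclin of entry into mitosis, had 7.42 and 7.56 in the genistein pools and 7.43 and 8.23 in the control pools (-0.34, SE 0.27). Without control pool 2 the median of the list was 0.20 with 20 of 22 genes above 0, and without control pool 1 it was -0.49. Ccnd1, the cyclin through which estrogen and growth factors act on the cell cycle, had 10.62 and 10.65 in the genistein pools and 10.59 and 10.87 in the control pools (-0.094, interval -0.34 to 0.15).

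Spt1, a salivary gland protein gene, had the largest fold change of all and rested on a lone pool. It had 6.66 and 10.53 in the genistein pools and 6.67 and 6.68 in the control pools, a log2 fold change of 1.92 (SE 0.83). With genistein pool 1 left out, Spt1 was the 1 gene that passed in limma (log2 fold change 3.85, adjusted p = 0.000656), and with genistein pool 2 left out the other 3 values lay between 6.66 and 6.68. At PND35 it had 8.45 and 8.31 in the genistein pools and 6.63 and 6.004 in the control pools, and in the 8 pools with vinclozolin or the mixture it lay between 5.67 and 7.21. The 3 highest values of the 16 pools were thus all genistein pools, and the fourth genistein pool was not high.

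**Figure D4:**
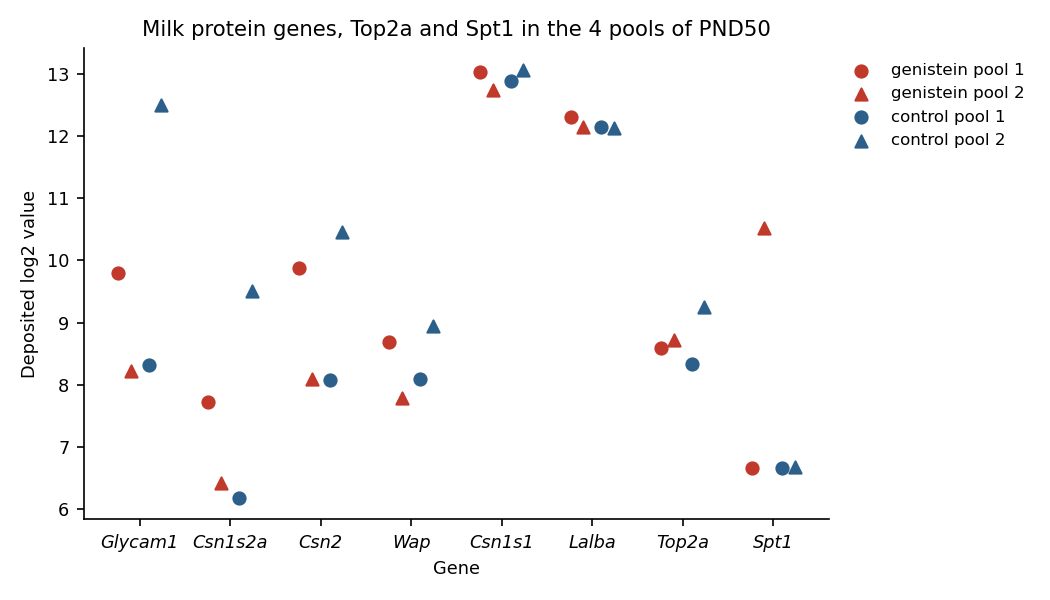
Deposited log2 values of 6 milk protein genes, Top2a and Spt1 in the 4 pools of PND50, with genistein red and control blue, pool 1 as circles and pool 2 as triangles. Glycam1, Csn1s2a, Csn2 and Wap are high in genistein pool 1 and control pool 2, and Csn1s1 is higher in the same pools over a smaller range. Lalba varies little, and Spt1 is high in genistein pool 2 only, at 10.53.

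No gene of the fat or connective tissue lists passed the test. Of 19 adipocyte genes, 9 were above 0 and 10 below, with a median of -0.0020 that ran from -0.071 (5 of 19 above 0, without control pool 2) to 0.096 (14 of 19, without genistein pool 1). Cebpa, an adipocyte transcription factor, had 8.90 and 9.17 in the genistein pools and 8.77 and 8.71 in the control pools (0.29, SE 0.19), and Lep, which encodes leptin, had overlapping pools at -0.081. Fibroblast and matrix genes were mostly above 0, with 13 of 15 above 0, 2 below and a median of 0.11, and both genistein pools were higher for 7 of the 15, against a background of 14.4%. The median stayed above 0 with any 1 pool left out, from 0.040 to 0.17, and all 15 intervals lay within 1.5-fold. Pdgfrb, the platelet-derived growth factor receptor of fibroblasts and pericytes, had 10.30 and 10.58 in the genistein pools and 10.16 and 10.18 in the control pools (0.28, SE 0.089), and Fbn1, a microfibril protein, had 0.20 (SE 0.12). Of 17 matrix metalloproteinases, their relatives and inhibitors, 16 were above 0, with a median of 0.079, led by Mmp13, a collagenase, at 0.33 (SE 0.41) with overlapping pools. Both genistein pools were higher for 1 of the 17 and lower for 1, against 14.4% and 15.8% of all genes. None of the 17 was at an unadjusted p under 0.05.

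Genes of skeletal muscle, which can be cut out with the gland, had a median of 0.10 with 15 of 17 above 0. The mean log2 level of the list was 7.15 and 7.77 in the genistein pools and 7.41 and 7.23 in the control pools, so genistein pool 2 was highest and pool 1 lowest. The median of the list ran from -0.13 to 0.48 when 1 pool was left out. The 9 tested skin and hair genes averaged 6.06 and 6.08 in the genistein pools and 6.03 and 6.08 in the control pools, close to the filter on low values at 5.66. Macrophage genes had a median of 0.060, with 13 of 16 above 0 and every interval within 1.5-fold. Without control pool 2 that median was -0.0020, with 8 of 16 above 0. Whether the muscle content of a pool plays a part in the values of other genes was not tested.

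No metabolic, stress or chromatin gene on the lists passed the test, and the lists differed in how closely their members were bounded. All 24 oxidative phosphorylation genes and all 15 genes of DNA methylation and histone modification had intervals within 1.5-fold, with medians of 0.013 and -0.048. Dnmt1, the maintenance DNA methyltransferase, had 9.16 and 9.20 in the genistein pools and 9.10 and 9.42 in the control pools (-0.083, interval -0.30 to 0.14). Intervals lay within 1.5-fold for only 7 of 15 fatty acid synthesis genes and 8 of 12 cholesterol synthesis genes, against 94.7% of all genes. Fatty acid synthesis genes were split 7 above and 8 below 0 (median -0.037), and of the cholesterol synthesis genes 3 were above 0 (median -0.070). Without genistein pool 2 these medians were 0.081 and 0.0027, without control pool 1 they were 0.029 and 0.0085, and the oxidative phosphorylation median was -0.037 without genistein pool 2. In the antioxidant and xenobiotic list, Nqo1, a quinone reductase, had -0.11, and apart from Gpx2 no member was at an unadjusted p under 0.05. Heat shock and unfolded protein genes had 1 of 14 above 0 and a median of -0.078, with Hsph1, a chaperone, at 8.07 and 7.94 in the genistein pools and 8.29 and 8.32 in the control pools (-0.31, SE 0.13).

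The circadian clock genes were not uniform, and intervals lay within 1.5-fold for 7 of 13. Their median of 0.039 was -0.011 without genistein pool 1 and -0.028 without control pool 2. Nr1d1, which encodes the nuclear receptor REV-ERB alpha, had 9.07 and 10.21 in the genistein pools and 8.51 and 8.75 in the control pools. The groups did not overlap, but the genistein pools differed by more than 1 log2 unit, and the log2 fold change of 1.01 had an interval of -0.25 to 2.27. At PND50 Nr1d1 had 9.86 and 10.47 with vinclozolin and 10.13 and 10.02 with the mixture. Its log2 fold changes against the same control pools were 1.53 and 1.44, and neither passed. The control pools were thus below the pools of every exposed group, and the difference was not particular to genistein. Dbp, another output gene of the clock, had 9.86 and 9.98 in the genistein pools and 9.63 and 9.52 in the control pools (0.35, SE 0.24), whereas Per2, a repressor within the clock, had 8.71 and 8.11 in the genistein pools and 8.96 and 8.55 in the control pools (-0.35, SE 0.23). The labels give no time of day at which glands were taken, and the part of that time in these values was not tested.

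The genistein difference was also set against that at PND35, where the 4 pools involved are separate from those of PND50. Neither age had a gene past the threshold, but at PND35 1311 genes (11.1%) had an unadjusted p under 0.05. The test of the difference between the ages called 0 genes in limma (0%, smallest adjusted p 0.507), with 906 at an unadjusted p under 0.05 (7.68%), 243 higher at PND50 (2.06%) and 663 lower (5.62%). The epithelial lists had opposite signs at the 2 ages. The luminal median was -0.11 at PND50 and 0.39 at PND35, where all 23 were above 0, and 15 of the 23 had a lower difference at PND50 at an unadjusted p under 0.05. The basal median was -0.18 at PND50 and 0.28 at PND35, and 9 of the 13 had a lower difference at PND50 by the same count. Over all genes the median was -0.0052 at PND50 and 0.032 at PND35. With each gene centred on its mean over the 16 arrays, the luminal genes at PND35 averaged 0.18 and -0.036 in the genistein pools. The control pools were at -0.24 and -0.44. Basal genes averaged 0.16 and -0.13 in the genistein pools and -0.25 and -0.31 in the control pools. Genes of a list were read in the same pools, so the counts of 15 and 9 are not of independent genes.

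Krt17 had a log2 fold change of -0.28 at PND50 and 1.07 at PND35, a difference of -1.35 (SE 0.30), and Ehf, an epithelial transcription factor, had -0.22 at PND50 and 0.58 at PND35 (-0.80). Elf5 had -0.068 at PND50 and 0.65 at PND35, a difference of -0.72 (SE 0.19). The genes with the smallest p of this test in the lower direction were Rasal1, a Ras inactivator (-0.67, SE 0.12), Gzma (-0.73, SE 0.14) and Dcaf4, a ubiquitin ligase adaptor (-0.51, SE 0.10), each with an adjusted p of 0.507 in limma. In the higher direction they were Pla2g2d, a secreted phospholipase of lymphoid tissue (0.83, SE 0.18), Npr1, the receptor of atrial natriuretic peptide (0.64, SE 0.14), and the olfactory receptor gene Or2v2b (0.38, SE 0.084), with the same adjusted p. Macrophage genes had a median of 0.060 at PND50 and -0.27 at PND35, against -0.0052 and 0.032 over all genes. Of the 16, 6 had a higher difference at PND50 at an unadjusted p under 0.05, against 2.06% of all genes. None of these passed over all genes.

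**Figure D5:**
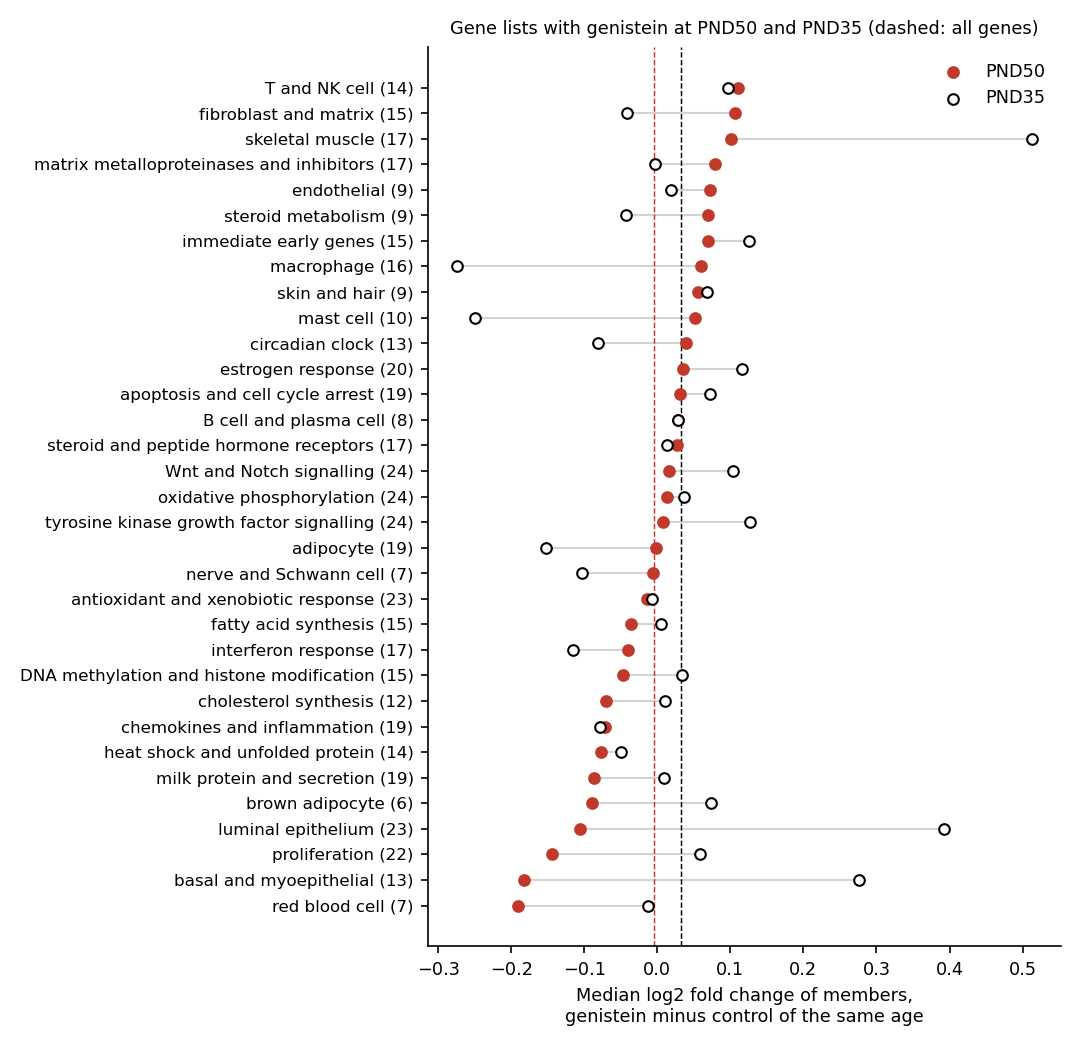
Median log2 fold change of the tested members of each of 33 gene lists (number of genes in brackets), genistein minus control, at PND50 (filled) and PND35 (open). Dashed lines give the medians of all genes, -0.0052 at PND50 (red) and 0.032 at PND35 (black). The luminal list lies at -0.11 at PND50 and 0.39 at PND35, and the PND50 medians of all lists lie between -0.19 and 0.11.

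Genistein was finally set against the other exposures at PND50. These comparisons share the control pools with each other when each is set against control, so the difference was tested directly between the exposed groups. Between genistein and vinclozolin limma called 0 genes (0%), with 1010 at an unadjusted p under 0.05 (8.56%). Between genistein and the mixture it called 3 genes (0.0254%), all lower with genistein alone, and 999 had an unadjusted p under 0.05 (8.47%). Slc5a8, a sodium-coupled transporter of short-chain fatty acids, had 8.57 and 8.48 in the genistein pools, 9.89 and 9.99 in the mixture pools, and 8.51 and 8.59 in the control pools (genistein minus mixture -1.42, SE 0.19, adjusted p = 0.0424). Cytip, a regulator of leukocyte adhesion, had 8.18 and 7.96 in the genistein pools, 8.79 and 9.06 in the mixture pools, and 8.26 and 8.20 in the control pools (-0.86, SE 0.12, adjusted p = 0.0424). Met, the receptor of hepatocyte growth factor, had 9.05 and 9.10 in the genistein pools, 9.60 and 9.62 in the mixture pools, and 9.11 and 9.09 in the control pools (-0.53, SE 0.063, adjusted p = 0.0281). For all 3 genes the mixture pools stood above the genistein pools, and the gap between genistein and control was small beside it. The number of these calls depended on which arrays entered the fit: with any 1 of the 4 genistein and mixture pools left out, none of the 3 passed.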

How the data were processed

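Arrays were single-colour Affymetrix arrays of biotin-labelled cDNA. Per the labels' protocols, RNA was extracted from individual glands with Trizol, and per the sample labels each array carried a pool of 5 RNA samples. The deposited table holds 1 value for each probe set and array, read as log2 intensity from its range of 2.20 to 13.9; how the authors corrected background and normalized, and in which log base, is not given in the sources used here. Array medians were 7.05 to 7.14, and values were used as deposited.

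Of 27342 probe sets, 15097 had exactly 1 gene symbol in the platform annotation, updated through RefSeq gene identifiers where these matched (15067). For genes with several probe sets (499 of 14324), the one with the highest mean was kept. Genes whose mean was under 5.66, the value below which 25% of probe sets lay, were left out, which left 11796. Fits used limma 3.58.1 in R 4.3.3, with all 16 arrays and a mean for each group, which leaves 8 residual degrees of freedom before moderation, two-sided tests and Benjamini-Hochberg adjustment over all genes tested. The fit was tested on simulated data. Of 614 listed genes, 527 were named on the array and 501 tested.

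Members, lists and rules were chosen with earlier results of these data known, so no list is independent evidence. Named genes were the 12 highest and 12 lowest past the threshold, or, where fewer passed, those with the largest fold changes among genes with an unadjusted p under 0.05 and no overlap, without placeholder symbols. Added were up to 2 highest and 2 lowest members of each list, the panel, the 3 smallest p in each direction of the age test, and the 6 genes with the largest gap between pools of each group. Ehf was named after its values were seen. Other settings are given in the closing section. Figures used matplotlib 3.10.9.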

Additional observations from a re-analysis of the deposited data

How the results depend on the processing

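No gene was called between genistein and control at PND50 under any setting run, with 2 exceptions: 1 gene (Kng2) in a fit of the 8 PND50 arrays only, and 0 to 1 with a pool left out, the 1 being Spt1 without genistein pool 1. The count at an unadjusted p under 0.05 was 998 over all 27342 probe sets without a filter, and 262 to 567 with a pool left out, highest without genistein pool 1. The share of genes with an interval within 1.5-fold was 88.6% to 90.3% with a pool left out. Between genistein and vinclozolin, 1 gene (Kng2) was called with the 8 PND50 arrays only, 2 (Kng2 and Clca1) with the groups compared only, and 0 to 1 with a pool left out. Between genistein and the mixture, 5 were called without a filter, and 1 with the 8 PND50 arrays only (Slc5a8), with the groups compared only (Slc5a8) or without both vinclozolin PND35 pools (Met), and 0 to 1 with a pool left out, the 1 being Spt1. The age test called 0 genes in every setting. With the replicate number as a block, genistein against control had 0 calls and 333 genes at an unadjusted p under 0.05, genistein against vinclozolin 0, genistein against the mixture 2 (Met and Slc5a8) and the age test 0. The numbers were not taken to pair the pools, since the pool differences of the genistein and control groups correlated at 0.066 across genes, and at -0.37 to 0.30 over the 28 pairs of groups. Of 2135 values of named genes under the settings that keep all 4 pools, 4 turned their sign, and of 728 with a pool left out, 97 did. Most settings that keep all 4 pools leave each group mean as it was, so they could not turn a sign. Only quantile normalization, median centring and the averaging of a gene's probe sets could, so the first of these counts says little about stability. Of the 33 lists, 18 turned the sign of their median when 1 pool was left out, an alternative chosen after the data were seen, and 15 kept it. Those that turned were adipocyte, skeletal muscle, macrophage, mast cell, B cell, nerve, estrogen response, hormone receptors, steroid metabolism, milk, proliferation, apoptosis, fatty acid synthesis, cholesterol synthesis, oxidative phosphorylation, interferon, circadian clock and immediate early genes. With quantile normalization and with median centring, the luminal medians were -0.10 and -0.098 and the basal medians -0.18 and -0.17. With a pool left out, the lone pool of its group is assumed to vary like the other groups. Signal over background was not used here, so dim probe sets were judged by their value alone.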

Other observations

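No blood or nerve gene on the lists passed the test at PND50. All 7 tested red blood cell genes had a log2 fold change below 0 with genistein, with a median of -0.19, and none was called, and with median centring of the arrays 1 of the 7 was above 0. This was the list median farthest from 0 of the 33, but only 1 of the 7 intervals lay within 1.5-fold, and the median ran from -0.29 to -0.065 with 1 pool left out. Ahsp, the chaperone of alpha globin, had 6.52 and 6.30 in the genistein pools and 6.90 and 6.89 in the control pools (-0.48, SE 0.35), and Alas2, which starts haem synthesis in red cell precursors, had 8.72 and 8.97 in the genistein pools and 8.83 and 9.11 in the control pools (-0.12, SE 0.23). Ahsp did not overlap between the groups and Alas2 did. Nerve and Schwann cell genes had a median of -0.0057 (-0.027 to 0.041 with 1 pool left out), with Ngfr, the low-affinity nerve growth factor receptor, at 0.26 (SE 0.15) and Mal, a myelin protein, at -0.23 (SE 0.10).

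Immune genes were mixed. Of 19 chemokine and inflammation genes 5 were above 0 and 14 below, with a median of -0.072. Cxcl13, the chemokine that attracts B cells, had 11.18 and 9.71 in the genistein pools and 11.55 and 10.69 in the control pools (-0.67, SE 0.43), while Cxcl9, an interferon-induced chemokine, had 9.22 and 9.22 in the genistein pools and 9.08 and 8.93 in the control pools (0.22, SE 0.093). Cxcl13 overlapped between the groups and varied within both. In the interferon list, 7 of 17 genes were above 0 and 10 below, with a median of -0.040 that was 0.071 without control pool 1. Its lowest member, Ifit1, had 6.68 and 5.49 in the genistein pools and 7.46 and 6.17 in the control pools (-0.73, SE 0.54). Its highest, Mx2, had 0.27 (SE 0.39). Endothelial genes had a median of 0.072 with 7 of 9 above 0, and T and natural killer cell genes had 10 of 14 above 0 (median 0.11) although Gzma was at -0.37.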
